A study of Homo sapiens with 12 samples.

Results

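Transcript levels of 9 genes of prostaglandin synthesis, breakdown and signalling were followed in HD-MyZ, an established cell line from a Hodgkin lymphoma, out of 18852 named genes on an Illumina beadchip. The genes were PLA2G4A, PTGS2, PTGS1, PTGES, PTGES2, PTGES3, HPGD, PTGER2 and PTGER4. They were taken by symbol from the probe annotation, with earlier results of these arrays known. The probe that stands for each gene was chosen by its mean log2 intensity over all 12 arrays, the brightest being kept, so that the mean level was used in the choice and the differences between groups were not. All 9 genes had a probe. Control cells, for which the labels give no treatment, cells given 10 µM perifosine, cells given 5 µM sorafenib and cells given both (the combination) were harvested 24 hours later, with 3 arrays in each of the 4 groups. Perifosine is an alkylphospholipid that blocks the kinase AKT, and sorafenib blocks RAF kinases and several receptor tyrosine kinases. The replicates carry the letters A, B and C, and no label says that they came from separate cultures, so p-values cover the spread between these arrays, which may be technical. The line is a single established culture, and no vehicle is named for the control.

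Prostaglandins are lipid signals made on demand from arachidonic acid. Cytosolic phospholipase A2 (PLA2G4A) frees arachidonic acid from membranes, the cyclooxygenases COX-1 (PTGS1) and COX-2 (PTGS2) turn it into prostaglandin H2, and terminal synthases (PTGES, PTGES2, PTGES3) make prostaglandin E2. HPGD, 15-hydroxyprostaglandin dehydrogenase, inactivates the product, and the receptors EP2 (PTGER2) and EP4 (PTGER4) pass its signal on through cyclic AMP. COX-1 is made constitutively in many tissues, whereas COX-2 is an inducible enzyme known for its rapid induction by growth factors and cytokines.

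The finding rests on 4 of these genes, and the 250 bases before the RefSeq start site (build GRCh38.p14) of each are shown here because they place the members whose levels changed beside their promoter letters. The table held promoters of all 9 members. PTGS2 (chr1:186680424-186680673, minus strand) and PLA2G4A (chr1:186828699-186828948, plus strand) both lie on chromosome 1, with start sites 149 kb apart and pointing away from each other. HPGD lies at chr4:174522489-174522738 (minus strand) and PTGES at chr9:129753043-129753292 (minus strand). Capitals mark any match, on either strand, to a TATA box (TATAAA), a cyclic AMP response element core (CGTCA), an E-box (CACGTG), a C/EBP motif (TTNCGCAA), an AP-1 motif (TGANTCA), an EGR motif (GNGGGGGCG), a GC box (GGGCGG), the serum response element or the NF-kB consensus.
PTGS2: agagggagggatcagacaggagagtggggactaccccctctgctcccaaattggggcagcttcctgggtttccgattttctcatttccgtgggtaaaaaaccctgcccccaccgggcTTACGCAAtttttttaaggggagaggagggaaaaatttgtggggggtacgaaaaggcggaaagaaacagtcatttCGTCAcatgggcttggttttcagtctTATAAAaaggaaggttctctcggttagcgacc
PLA2G4A: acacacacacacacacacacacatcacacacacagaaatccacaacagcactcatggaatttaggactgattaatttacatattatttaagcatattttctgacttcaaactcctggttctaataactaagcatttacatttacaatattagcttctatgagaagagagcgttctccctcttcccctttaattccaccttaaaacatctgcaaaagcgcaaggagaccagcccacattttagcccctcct
HPGD: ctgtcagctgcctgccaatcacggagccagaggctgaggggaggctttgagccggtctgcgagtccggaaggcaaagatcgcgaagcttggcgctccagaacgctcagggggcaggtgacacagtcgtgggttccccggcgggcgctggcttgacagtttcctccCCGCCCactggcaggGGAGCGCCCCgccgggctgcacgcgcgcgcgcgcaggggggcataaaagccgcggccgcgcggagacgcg
PTGES: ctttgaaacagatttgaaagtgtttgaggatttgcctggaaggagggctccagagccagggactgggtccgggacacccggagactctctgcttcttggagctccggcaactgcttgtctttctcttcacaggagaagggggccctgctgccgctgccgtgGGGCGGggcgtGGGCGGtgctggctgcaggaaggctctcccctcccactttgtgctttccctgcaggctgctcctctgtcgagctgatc

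Within these windows the PTGS2 promoter held a TATA box that begins 32 bases before the start site, a cyclic AMP response element core at 58 bases and a C/EBP motif at 133 bases. Of 27305 promoters in the table, 11.1% held this TATA box, 21.7% the core and 0.74% the C/EBP motif. PLA2G4A held 0 of the 9 motifs. HPGD held a GC box (42.3% of all promoters) at 85 bases and an NF-kB consensus match (9.57%) at 70 bases, and PTGES held GC boxes at 89 and 78 bases. The shares of the remaining motifs were 6.49% for the E-box, 6.6% for AP-1, 10.4% for EGR and 1.14% for the serum response element. Of all 9 members, 2 held the TATA box, 3 the core, 1 the C/EBP motif, 7 a GC box and 4 the NF-kB consensus. Members that passed in 0 comparisons were among them. PTGS1 held a TATA box match, PTGES3 and PTGER2 the core, and PTGES3, PTGER2 and PTGER4 the NF-kB consensus. These matches describe letters and say nothing of binding, and their part in the changes was not tested. Only exact matches to the patterns were marked, so a window without a match may still hold a site that departs from the pattern.

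Intensities ran from 170 to 71906 on a linear scale with no background subtracted. The densest probe intensity was 275, so that values near it are close to the background and fold changes there are understated. The cell label was set against its markers: of 7 Hodgkin cell markers, TNFRSF8 (CD30), CCL17 and IRF4 lay at 278, 256 and 343, near the background, while FUT4 (CD15), TRAF1, JUNB and BATF3 lay at 1645, 1011, 1195 and 1900 (geometric means over 12 arrays). All 4 measured B cell markers (of 5), all 3 T cell markers and all 4 epithelial markers lay at 433 or less, and of 3 endothelial markers only PECAM1, at 620, lay clear of the background. The macrophage marker CD68 lay at 13129 and the collagen gene COL1A2 at 34430. Markers of other cell types moved with the drugs: the summed intensity of 6 of 6 fibroblast and stromal markers ran from 27642 to 36585 in control, 24370 to 28772 with perifosine, 59660 to 75377 with sorafenib and 59196 to 73297 with both. COL3A1, LUM and PDGFRB of that list were near the background, at 283, 262 and 338, while COL1A1 and DCN lay at 3048 and 4253. Group means in control, perifosine, sorafenib and both were 2103, 2168, 4918 and 4136 for COL1A1. For DCN they were 3492, 2275, 6479 and 6552. The sum of 4 of 4 monocyte and macrophage markers, nearly all of it CD68, ran from 12973 to 14286 in control, 18576 to 19086 with perifosine, 8919 to 13877 with sorafenib and 13425 to 14072 with both, with CD14, LYZ and CSF1R near the background. The sum of the 7 Hodgkin cell markers ran from 6714 to 7791, 8947 to 9403, 5473 to 5570 and 5428 to 6396 in the same order. The part of these markers in the results below was not tested.

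There were 3 arrays that stood apart from their group mates: control C, sorafenib B and combination A. Their mean Pearson correlation of log2 intensity with their mates over all named genes was 0.985, 0.963 and 0.985, against 0.994, 0.994 and 0.993 between those mates. PTGS2 was higher in these arrays than in their mates by log2 values of 0.45, 0.84 and 0.45, PLA2G4A by 0.77, 0.54 and 0.23, and PTGER4 by 0.42, 0.60 and 0.22. PTGES3 was higher too, by 0.24, 0.44 and 0.26. PTGES2 deviated most in sorafenib B, where it was lower by 0.73. All arrays were kept, and results that rest on these 3 are given with and without them. The 3 were picked for deviating, so leaving them out lowers the spread and with it many p-values. Shares of all genes with limma's adjusted p under 0.05 went from 0.297% to 1.55% (perifosine) and 2.25% to 4.65% (sorafenib) against control. For the combination they went from 1.82% to 5.9% against control and 2.2% to 6.92% against perifosine. Results without the 3 are a description.

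**Figure D1:**
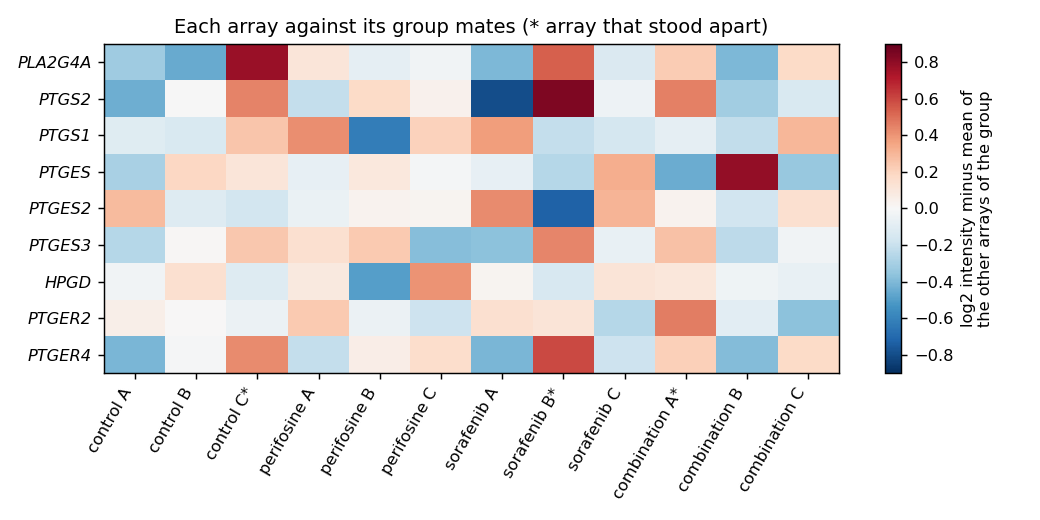
Log2 intensity of each of the 9 genes in each array minus the mean of the other arrays of its group (colour scale), with genes in rows and the 12 arrays in columns and stars on the 3 arrays that stood apart. PTGS2, PLA2G4A, PTGES3 and PTGER4 are above their group mates in all 3 starred arrays.

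PTGS2 showed the widest spread of levels among the 9 genes, high with perifosine and low in every group that received sorafenib. Against control it was 2.27-fold higher with perifosine, 2.48-fold lower with sorafenib and 2.59-fold lower with both drugs, and with both it was 5.88-fold lower than with perifosine alone. PLA2G4A was also low in the groups given sorafenib, and with perifosine its log2 difference from control was 0.11. HPGD rose with perifosine alone, and PTGES was highest in the combination. PTGS1, PTGES2, PTGES3, PTGER2 and PTGER4 passed limma's test in 0 of 6 comparisons. At an unadjusted p under 0.05, PTGER2 did so in 3 and PTGES2 in 1, and the rest in 0. Against control, 1348 (perifosine), 2848 (sorafenib) and 2404 (both) of all 18852 genes had such a p, so these counts are a description.

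Perifosine against control called 1 of the 9 genes (HPGD), where 0.297% of all genes were called. Sorafenib against control called 1 (PTGS2), where 2.25% of all genes were called. The combination against control called 3 (PTGS2 and PLA2G4A lower, PTGES higher), beside 1.82% of all genes. The combination against perifosine, which is sorafenib added to perifosine, called 4 (PTGS2, PLA2G4A and HPGD lower, PTGES higher), beside 2.2% of all genes. The combination against sorafenib, which is perifosine added to sorafenib, called 0 of the 9 by limma, beside 0% of all genes. There 0 of the 9 had an unadjusted p under 0.05, beside 643 of all 18852 genes. Since the genes were picked with results of these arrays in view, these shares describe them and do not test the list. The comparisons share arrays: the 3 with control use the same control arrays, and the rest share the combination. The median log2 difference of the 9 genes was -0.03, -0.32, -0.18, -0.15 and 0.07 in the order just given, and that of all genes lay between -0.0022 and 0.0026.

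**Figure D2:**
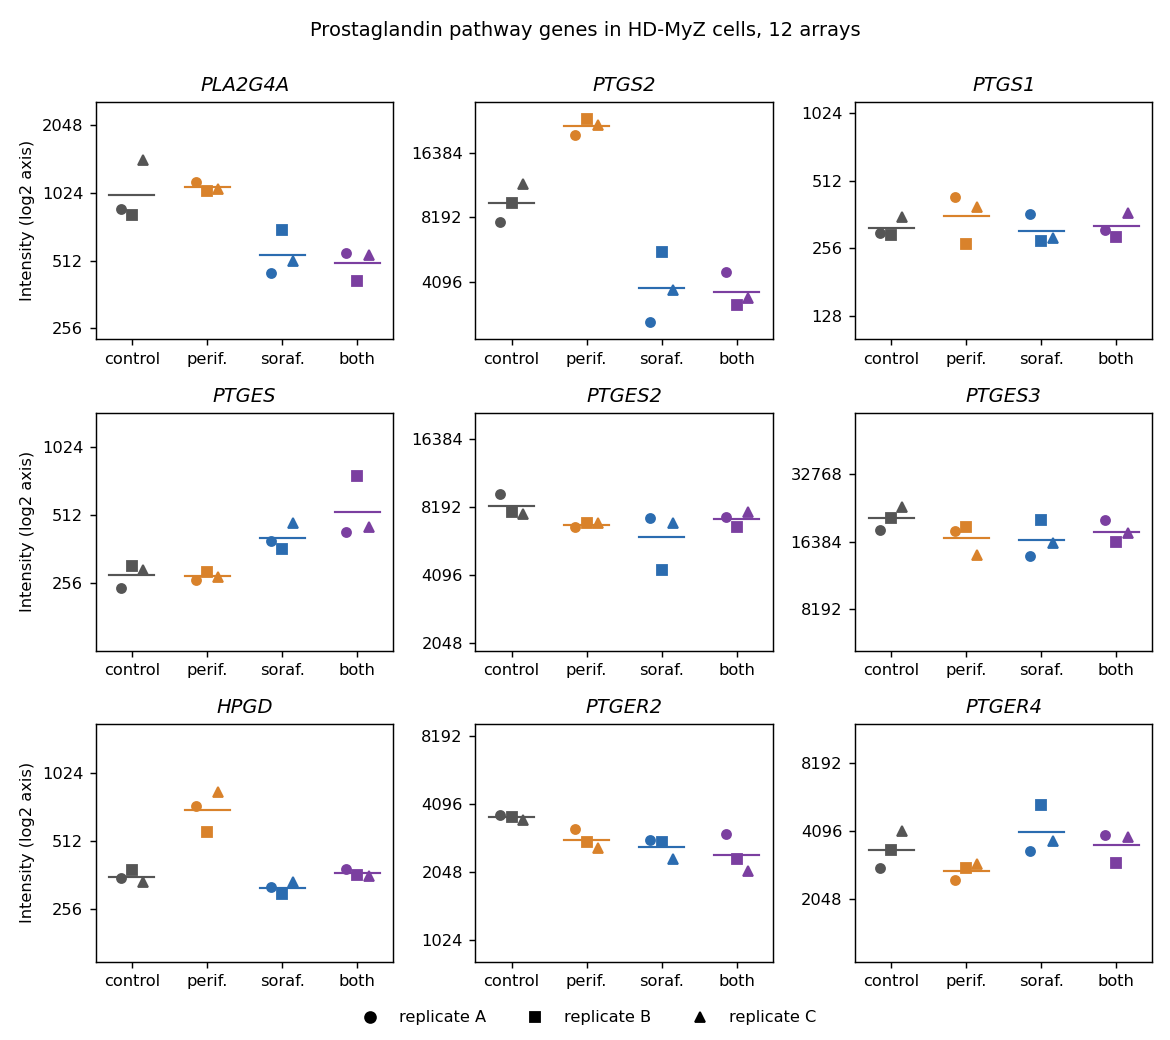
Intensity on a log2 axis in each array (points, replicates A to C by shape) for the 9 genes in the 4 groups, with the geometric mean of each group as a bar. The perifosine arrays lie above all others for PTGS2, between 19658 and 23478, and for HPGD, between 557 and 844.

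The first step of the pathway is release of arachidonic acid by PLA2G4A. Its intensity was 864, 811 and 1432 in control A, B and C, 1142, 1046 and 1067 with perifosine, 451, 697 and 512 with sorafenib, and 554, 413 and 540 with both drugs. Every array with sorafenib was below every array without it, and control C, which stood apart, was the highest of the 12. In bulk RNA, fewer cells that express a gene and less RNA per cell cannot be told apart. The log2 difference between combination and perifosine was -1.12 (SE 0.22, with limma's adjusted p = 0.0211), and between combination and control -1.01 (SE 0.22, adjusted p = 0.0431). Sorafenib alone differed from control by -0.88 (SE 0.22, adjusted p = 0.0655), short of the threshold of 0.05. With the 3 arrays that stood apart left out, this was -0.80 with an adjusted p of 0.00818, and the combination was at -0.82 (adjusted p = 0.00551). Sorafenib alone also passed with array weights (adjusted p = 0.00853) and without sorafenib B (-1.06, adjusted p = 0.0238). Perifosine alone was at 0.11 (95% interval -0.37 to 0.60, adjusted p = 0.972), and the difference between combination and sorafenib was -0.13 (95% interval -0.61 to 0.36). The call of combination against control ended without any single control, perifosine or combination array, without sorafenib C, with the replicate block and in a fit of those groups alone (adjusted p up to 0.151, without combination B). That against perifosine ended without any single perifosine or combination array (up to 0.0917, without perifosine A).

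At the cyclooxygenase step the inducible enzyme moved and its constitutive counterpart did not pass the test. PTGS2 had intensities of 7784, 9520 and 11732 in control, 19658, 23478 and 22103 with perifosine, 2662, 5670 and 3770 with sorafenib, and 4544, 3190 and 3463 with both drugs (A, B and C in each). The group means were 9679 ± 1979 (SD, n = 3), 21747 ± 1935, 4034 ± 1521 and 3732 ± 716. All perifosine arrays were above all control arrays, and these were above all arrays with sorafenib, whose 2 groups overlapped. Sorafenib against control gave a log2 difference of -1.31 (SE 0.25, adjusted p = 0.0209 by limma), and the combination -1.37 (SE 0.25, adjusted p = 0.0178). This fall was known when the genes were chosen, so its p-value is no independent evidence. The combination against perifosine gave -2.56 (SE 0.25, adjusted p = 0.000246), and this call held in all 22 other settings, with differences from -2.71 to -2.45. Perifosine against control was at 1.18 (SE 0.25), with an unadjusted p of 0.000483 and an adjusted p of 0.0939, and so did not pass. It was 1.33 without the 3 arrays that stood apart, with an adjusted p of 0.00128, where 1.55% of all genes were called against 0.297% with all arrays. The spread of all groups enters this test, and without sorafenib B, an array of neither group, the adjusted p was 0.0100. It was 0.0453 without sorafenib A, 0.00197 with array weights and 0.0169 in a fit of the groups compared alone. The call of sorafenib against control ended without control B, control C or sorafenib C (adjusted p of 0.0804, 0.0831 and 0.0548) and in a fit of the groups compared alone (0.186). That of the combination ended without control B, control C, combination B or combination C, with an adjusted p up to 0.0784. On the 9 arrays that did not stand apart, sorafenib was at -1.44 (adjusted p = 0.000926) and the combination at -1.37 (adjusted p = 0.000817).

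A second PTGS2 probe was dimmer and showed the same order of groups. Its group means were 2965 ± 581 in control, 6539 ± 353 with perifosine, 1086 ± 576 with sorafenib and 1059 ± 190 with both. Its log2 differences from control were 1.16, -1.56 and -1.48, and the combination differed from perifosine by -2.64. The small difference between combination and sorafenib had opposite signs in the probes, at -0.06 in the brighter and 0.08 in the dimmer. In both probes sorafenib B was the highest of the sorafenib arrays, at 5670 in the brighter and 1738 in the dimmer.

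**Figure D3:**
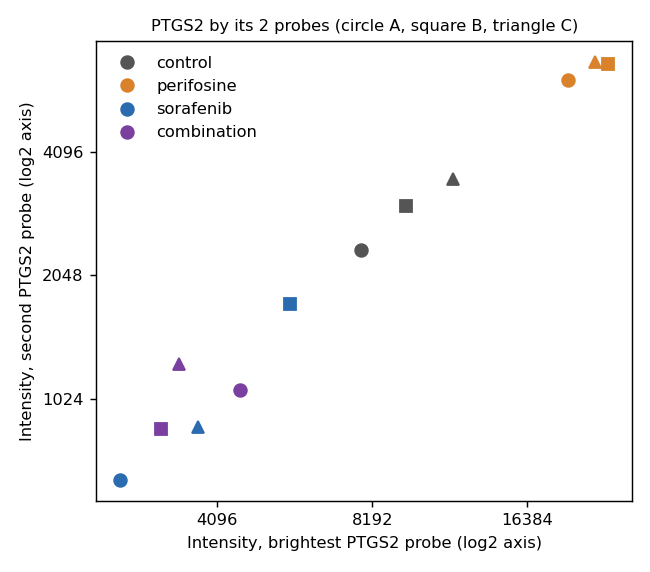
Intensity of the brighter PTGS2 probe (x axis) against the dimmer (y axis), both on log2 axes, in 12 arrays coloured by group and shaped by replicate. The arrays fall in the order perifosine, control and then both sorafenib groups on either probe.

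PTGS1 stayed close to the background in every group. Its intensity was 299, 295 and 353 in control, 432, 268 and 392 with perifosine, 363, 276 and 284 with sorafenib, and 310, 289 and 369 with both, and all groups overlapped. Its log2 differences from control were 0.18, -0.04 and 0.03 for perifosine, sorafenib and both, each with a 95% interval within -0.44 to 0.58. A second PTGS1 probe was dimmer, with a mean of 269, so the choice of the brighter rests on 324 against 269. These intervals bound the difference on the scale with the background left in.

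Of the terminal synthases, PTGES, the inducible microsomal prostaglandin E synthase that works together with COX-2, was dim. In the groups given sorafenib it went the other way from PTGS2, while with perifosine its log2 difference from control was -0.03. Its intensity was 243, 303 and 292 in control and 264, 285 and 271 with perifosine, groups that overlapped near the background. It was 392, 361 and 473 with sorafenib and 430, 762 and 451 with both, and every array with sorafenib was above every array without it. In the combination PTGES rose over control by 0.93 on the log2 scale (SE 0.20, with limma's adjusted p = 0.0370) and over perifosine by 0.95 (SE 0.20, adjusted p = 0.0268). Sorafenib alone was at 0.54 (adjusted p = 0.194), and passed with array weights (0.65, adjusted p = 0.0422). With normexp background correction these 3 differences were larger, at 1.57, 1.61 and 1.02, with limma's adjusted p of 0.0205, 0.00991 and 0.115. Background left in dim values lowers their fold changes, and its part in this was not tested. Combination B, at 762, lay above the other 2 arrays of its group, and without it the difference from control was 0.66 with an adjusted p of 0.0664. The call against control ended in 11 of 21 settings, among them every single control or perifosine array left out, sorafenib A, combination B or combination C left out, the replicate block and a fit of the groups compared alone (adjusted p up to 0.135, without control A). The call against perifosine ended without any single perifosine array (up to 0.109). Without the 3 arrays that stood apart the differences were 1.11 (adjusted p = 0.00857) and 1.10 (adjusted p = 0.00342).

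PTGES2, a second membrane-bound prostaglandin E synthase, passed in 0 of 6 comparisons. Its group means were 8260 ± 967 in control, 6832 ± 159 with perifosine, 6181 ± 1646 with sorafenib and 7258 ± 540 with both. The lowest of the 12 arrays was sorafenib B at 4294, one of those that stood apart. Its log2 differences from control were -0.27 (adjusted p = 0.880), -0.45 (adjusted p = 0.241) and -0.18 (adjusted p = 0.783), and a second probe gave -0.20, -0.37 and -0.28. PTGES3, the cytosolic prostaglandin E synthase that is also the HSP90 co-chaperone p23, had group means of 20887 ± 2379, 17152 ± 2520, 16915 ± 3247 and 18160 ± 2117 in the same order. The groups overlapped, and the differences from control were -0.29, -0.32 and -0.20, with 95% intervals that all included 0.

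HPGD, which breaks prostaglandins down, rose with perifosine alone. Its intensity was 348, 378 and 335 in control, 729, 557 and 844 with perifosine, 321, 297 and 335 with sorafenib, and 385, 360 and 355 with both. The perifosine arrays stood above all 9 others, which lay between 297 and 385, close to the background. Perifosine against control gave a log2 difference of 0.99 (SE 0.14, adjusted p = 0.0134 by limma), and 1.44 with normexp background correction. The combination was lower than perifosine by -0.93 (SE 0.14, adjusted p = 0.00376), a call that held in all 21 other settings, and it differed from control by 0.05 (95% interval -0.25 to 0.35). The call of perifosine against control ended without any single control array, perifosine A or perifosine C (adjusted p of 0.0551 to 0.0813). It was 0.95 without the 3 arrays that stood apart, with an adjusted p of 0.00698. HPGD is too dim to enter the fit limited to genes averaging 9 or more on the log2 scale.

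Of the receptors, PTGER2 was highest in control. Its intensity was 3682, 3594 and 3500 in control, 3179, 2781 and 2617 with perifosine, 2827, 2792 and 2347 with sorafenib, and 3031, 2348 and 2066 with both. All control arrays were above all treated arrays, and the treated groups overlapped each other. The log2 differences from control were -0.33 (adjusted p = 0.643), -0.44 (adjusted p = 0.145) and -0.55 (SE 0.14, adjusted p = 0.0823), so none passed. Sorafenib against control passed with array weights (-0.53, adjusted p = 0.0258). The combination passed without the 3 arrays that stood apart (-0.72, adjusted p = 0.0102), and also without combination A or sorafenib B alone (adjusted p of 0.0381 and 0.0415), with array weights (0.0103) and with the replicate block (0.0480). PTGER4 had group means of 3413 ± 657, 2733 ± 240, 4114 ± 1053 and 3571 ± 530 in the order control, perifosine, sorafenib, both. Its highest array was sorafenib B at 5312, and the differences from control were -0.31, 0.26 and 0.07 with 95% intervals that included 0. The combination arrays of PTGER4 lay above the perifosine arrays, by a log2 value of 0.38 (adjusted p = 0.473).

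**Figure D4:**
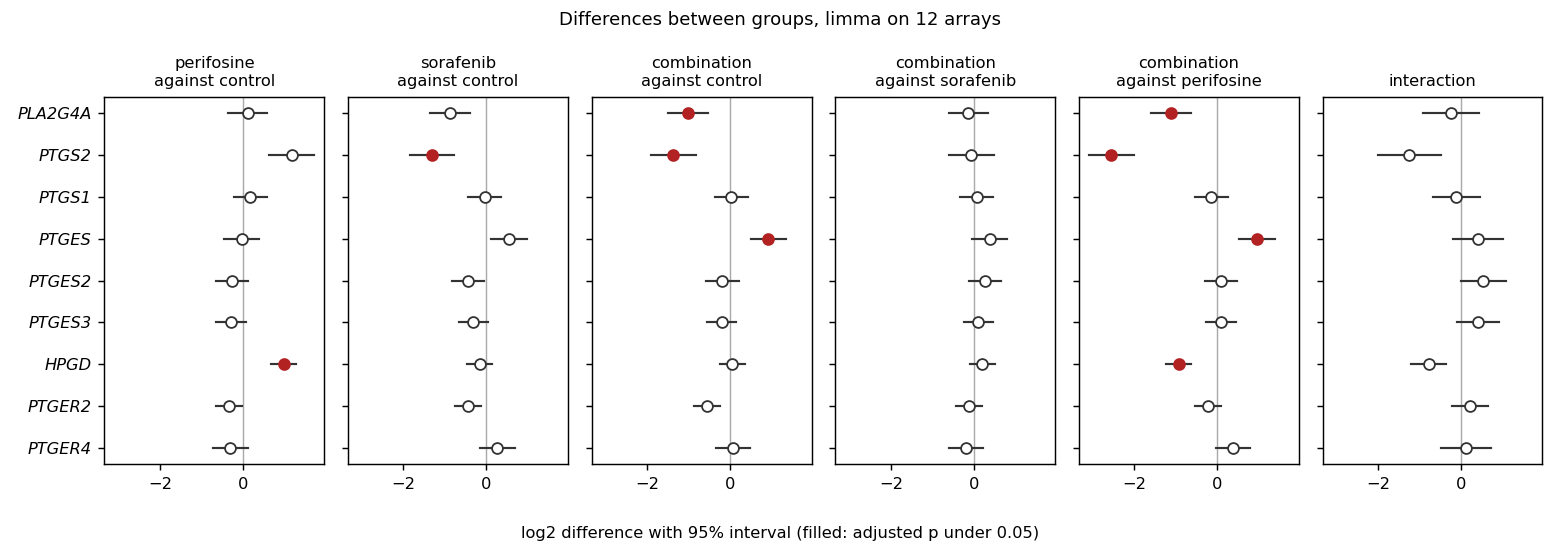
Log2 differences (points) with 95% intervals (lines) of the 9 genes in 6 comparisons, filled where the adjusted p is under 0.05. The interval of PTGS2 in the combination against perifosine runs from -3.10 to -2.02.

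The interaction asked whether perifosine acted differently with sorafenib than without it. For PTGS2 the perifosine difference was 1.18 without sorafenib and -0.06 with it, an interaction of -1.24 (SE 0.35, unadjusted p = 0.00410, adjusted p = 0.837 by limma). For HPGD it was 0.99 and 0.21, an interaction of -0.78 (SE 0.19, unadjusted p = 0.00188, adjusted p = 0.715). The adjusted p was not under the threshold for any of the 9, and 0.0159% of all genes were called. With both drugs, PTGS2 lay close to the level with sorafenib alone (95% interval of the log2 difference -0.60 to 0.48). For HPGD this interval was -0.09 to 0.51, and every combination array lay above every sorafenib array. Its combination level was nearer to control, with a log2 difference of 0.05. These intervals do not show that the groups are alike.

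Around the 9 genes, 10 lists of related genes were examined, and 6 genes of them passed in any comparison. With 0% to 2.25% of all genes called in a comparison, lists this short would hold few calls or none, and their counts are given as a description. Of 12 measured genes of other prostanoid synthesis (of 15 listed), 7 of 7 other prostanoid receptors, 5 of 5 genes of prostaglandin transport and inactivation, 11 of 12 leukotriene and lipoxygenase genes, 11 of 11 genes of arachidonate supply and 10 of 10 proteins that bind AU-rich elements, 0 were called in each of the 6 comparisons by limma. Within each single comparison, between 0 and 2 members of each of these lists had an unadjusted p under 0.05. Over all 18852 genes, between 643 and 2848 had such a p in a comparison.

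Among 11 transcription factors known to act on PTGS2, 2 fell with sorafenib and 0 rose, where 2.25% of all genes were called (250 higher and 175 lower). FOS, a subunit of AP-1, was dim, at 504 ± 32.0 in control, 624 ± 55.6 with perifosine, 324 ± 47.1 with sorafenib and 358 ± 38.4 with both. It fell by 0.65 on the log2 scale with sorafenib (adjusted p = 0.0278 by limma) and was lower in the combination than with perifosine by -0.80 (adjusted p = 0.00685), the second call holding in all 21 settings. With normexp background correction these differences were -1.07 and -1.21. The first call ended without control A, B or C or sorafenib A, with the replicate block and in a fit of the 2 groups alone (adjusted p up to 0.177). ETV4, an ETS factor of the PEA3 group, went from 1537 ± 148 in control and 1272 ± 110 with perifosine to 814 ± 188 with sorafenib and 860 ± 75.3 with both. It was lower with sorafenib by -0.94 (adjusted p = 0.0122) and with both by -0.84 (adjusted p = 0.0198). The sorafenib call ended without control B (0.0613) and in a fit of the groups compared alone (0.161), and the other without any single control or combination array (up to 0.0989). The median of the 11 factors was -0.32 with sorafenib, and that of all genes 0.0026. It was 0.11 with perifosine and -0.18 with both against control, and -0.11 in the combination against perifosine. In the combination against sorafenib it was 0.08. The factors did not all share a sign: CREB1, CEBPB and JUN were higher with sorafenib than in control, without passing.

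Of 8 genes that answer to cyclic AMP, the second messenger of EP2 and EP4, 2 were lower with both drugs than with perifosine alone, a comparison in which 2.2% of all genes were called (230 higher and 184 lower). PDE4B, a phosphodiesterase that degrades cyclic AMP, had group means of 3964 ± 177, 5889 ± 752, 2887 ± 623 and 2823 ± 291 in the order control, perifosine, sorafenib, both. It fell by 1.06 on the log2 scale from perifosine to the combination (SE 0.15, adjusted p = 0.00370 by limma), a call that held in all 22 other settings, with a fall of 0.47 where all its probes were averaged. NR4A2, an orphan nuclear receptor, was dim, at 411 ± 31.4, 550 ± 23.4, 358 ± 46.8 and 389 ± 18.4, and fell by 0.50 in that comparison (adjusted p = 0.0396). The NR4A2 call ended in 13 of 21 settings, with an adjusted p up to 0.161 (without perifosine B).

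Of 7 cytokines and receptors known to induce COX-2, IL6 alone passed, and only in the combination against perifosine, where 2.2% of all genes were called. Its group means were 1016 ± 286 in control, 2408 ± 619 with perifosine, 858 ± 230 with sorafenib and 1024 ± 187 with both. It was lower by -1.22 (SE 0.27, adjusted p = 0.0426 by limma), and against control the perifosine difference was 1.25 (adjusted p = 0.114). The call ended without control A, control B, perifosine A, perifosine B, sorafenib C or any combination array (adjusted p up to 0.181). Of 6 measured HSP90 genes and co-chaperones of 7 listed, STIP1 fell with sorafenib by 0.42 (adjusted p = 0.0467), from 18467 ± 873 to 13816 ± 674, where 2.25% of all genes were called. It was a call that ended in 18 of 22 settings (adjusted p up to 0.218, in a fit of the groups compared alone).

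The profile of PTGS2 was set against 9586 other genes averaging 9 or more on the log2 scale, by the root mean square difference of log2 values over 12 arrays after each gene was centred on its own mean. The 5 nearest were ITGA2 (0.32), which encodes a collagen-binding integrin subunit, SCEL (0.39), which encodes sciellin, EGR1 (0.42), an immediate early transcription factor, HAS2 (0.43), a hyaluronan synthase, and THBD (0.44), thrombomodulin. The median over all candidates was 1.12, and PTGS2 itself spanned 3.14. ITGA2 went from 15780 ± 5012 in control to 33668 ± 6002 with perifosine, 8493 ± 1989 with sorafenib and 8645 ± 1042 with both. EGR1 went from 5344 ± 754 to 8543 ± 675, 1949 ± 377 and 2293 ± 399. With the dimmer PTGS2 probe the nearest 5 were again these genes, and with normexp background correction 4 of them. Without the 3 arrays that stood apart 3 of them were (ITGA2, SCEL and EGR1). The likeness includes what the arrays share within groups and is a description.

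**Figure D5:**
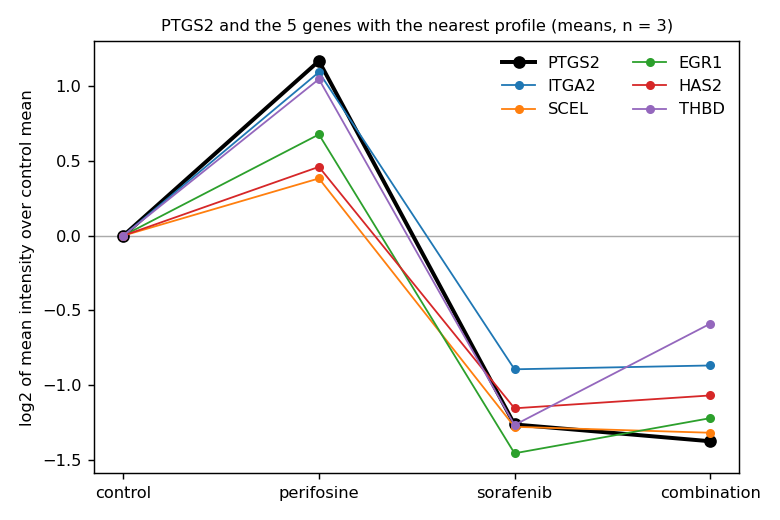
Log2 of each group's mean intensity over the control mean (y axis, n = 3 arrays per point) for PTGS2 (thick black line) and the 5 genes nearest to it, in the 4 groups. All 6 lines are above 0 with perifosine and below 0 with sorafenib and with both drugs.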

How the data were processed

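RNA from 12 samples was hybridised as biotinylated cRNA to Illumina arrays, per the labels' protocols. BeadStudio is named in the submitters' processing notes, and the sources used here give neither its version nor its settings. Intensity values as deposited are linear. Sorted columns differ by at most 2.35% between arrays, as after quantile normalization, and the lowest value of 170 shows a background left in. Of a table of signals without normalization, 24 columns (12 signals and their detection p-values) were not used, since their names match no sample.

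From the deposited intensities, log2 values were fitted with limma 3.58.1 (R 4.3.3) as 4 group means over 12 arrays (8 residual and 3.52 prior degrees of freedom), with Benjamini-Hochberg adjustment over 18852 genes at 0.05. Of 48803 probes, 28098 had exactly 1 symbol, 13 several and 20692 none listed. Symbols were compared by Entrez identifier with RefSeq (28059 matched, 0 changed). Where a gene had several probes, the brightest was kept. The fit was tested on simulated data, drawn as independent normal values with the same spread for a gene in every array. Those data held no arrays that stand apart, so the test cannot speak to their effect on the calls.

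The 9 genes, the lists and the arrays said to stand apart were chosen with earlier results of these data known. An array stood apart where its 2 mates correlated with each other better than it did with them on average, by over 0.005. Named genes were the 9, up to 4 called genes of each list, and the 5 nearest to PTGS2. Same-letter arrays were checked for pairing: over 18 pairs, deviations from group means correlated between -0.57 and 0.49, with 5 pairs above 0.1, so the letters were not taken as pairs. Deviations within a group of 3 arrays depend on each other, so this check cannot exclude a shared batch. The alternatives were normexp correction (offset 50), a further quantile normalization, a filter at log2 of 9, the mean of all probes, every named probe, only the groups compared, a replicate block, array weights, trend and robust moderation, and each array left out. Leaving out the 3 arrays together, and the dimmer PTGS2 probe for the nearest genes, were added after seeing the data.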

Additional observations from a re-analysis of the deposited data

How the results depend on the processing

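The number of the 9 genes called was the same or within 1.5 times under the settings not named here. For perifosine against control (1) it was 0 with the filter at a mean log2 of 9, which leaves out HPGD, 2 with only the groups compared, with array weights and without the 3 arrays that stood apart, and 0 to 2 with single arrays left out. The shares of all genes called were 0.396%, 0.668%, 1.85% and 1.55% in that order, and 0.0583% to 0.822% with single arrays left out. The main fit called 0.297%. For sorafenib against control (1) it was 0 with only the groups compared, 4 with array weights, 2 without the 3 arrays, and 0 to 2 with single arrays left out. The shares of all genes called were 0.053%, 6.63%, 4.65% and 0.589% to 3.02% in that order, beside 2.25% in the main fit. For the combination against control (3) it was 1 with only the groups compared and 0 to 4 with single arrays left out. The shares of all genes called were 1.97% and 0.472% to 5.55%, beside 1.82% in the main fit. For the combination against perifosine (4) it was 2 with the filter, which leaves out HPGD and PTGES, and 2 to 4 with single arrays left out. The shares of all genes called were 3.67% and 1.14% to 5.57%, beside 2.2% in the main fit. For the combination against sorafenib and the interaction it was 0 throughout. With the replicate block the count was 1, 1, 2 (PTGS2 and PTGER2), 4, 0 and 0 in the order given, so that it ended the calls of PTGES (adjusted p = 0.0525) and PLA2G4A (0.0787) in the combination against control. With the block 0.196%, 1.78%, 1.45%, 1.85%, 0% and 0.0106% of all genes were called. The counts of the 9 genes are a description beside these shares. No label says what the replicate letters mark, and the check of same-letter arrays cannot exclude a shared batch. The cause of these changes was not tested.

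Of 1337 recomputed values, including those of 6 related genes, 35 changed sign. They belong to 15 results, of which 0 were called, with main differences of at most 0.19. With the mean of all probes PTGS1 was at 0.0173 (sorafenib against control) and -0.0031 (combination against sorafenib) and PTGS2 at 0.0079 (combination against sorafenib). PTGS2 was at 0.0147 there with array weights. Without the 3 arrays PTGES was at 0.0071 (perifosine), PTGS1 at 0.11 (sorafenib), HPGD at -0.0208 (combination), PTGS2 at 0.0692 (combination against sorafenib) and PTGES3 at -0.0010 (combination against perifosine). With single arrays left out, the ranges were PTGES -0.13 to 0.0334 and PLA2G4A -0.0371 to 0.37 (perifosine); PTGS1 -0.17 to 0.0417 (sorafenib); PTGS1 -0.0717 to 0.11 and PTGER4 -0.0650 to 0.21 (combination); PTGS1 -0.0297 to 0.20, PTGS2 -0.33 to 0.22, PTGES3 -0.00972 to 0.26, PLA2G4A -0.26 to 0.0530, PTGER2 -0.26 to 0.0116 and PTGER4 -0.32 to 0.0130 (combination against sorafenib); PTGES3 -0.0396 to 0.17 (combination against perifosine); PTGS1 -0.32 to 0.0281 and PTGER4 -0.0209 to 0.32 (interaction). The groups-compared fit was not run for the interaction. Leaving out 1 array leaves 2 in its group, with the spread pooled over groups. PTGS1, PTGES and HPGD were dim, and each group held 3 arrays. The part of either in these changes was not tested.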
